A study of Mus musculus with 2 samples.

Results

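Histone genes encode the proteins around which nuclear DNA is wound. They were taken as every gene of the deposited exon count table whose symbol begins with Hist1h to Hist4h, H1f, H2af or H3f3, which gave 79 genes of 30744 symbols in all. For 3 genes with more than 1 row (Hist1h2ao, Hist1h2br and Hist2h3c1, 82 rows in all) the row with most reads in the libraries combined was kept. The 79 genes fall into 10 linker histones, 57 core replication-dependent histones (16 H2A, 18 H2B, 10 H3 and 13 H4) and 12 replacement histones (10 H2A variants and 2 H3 variants).

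The study compared whole-transcriptome RNA-seq of a normal mouse kidney and of a kidney tumour that arose after forced expression of reprogramming factors, with 1 library each. The normal kidney is labelled WT, without doxycycline, and the tumour Tet-OSKM/mPer2-luc, with doxycycline. Both carry a C57BL/6 x DBA/2 F1 background. In Tet-OSKM animals doxycycline switches on Oct4, Sox2, Klf4 and c-Myc through the transactivator M2rtTA, which is driven from the broadly active Rosa26 locus, and mPer2-luc reports the activity of the clock gene Per2 with luciferase. Per the labels' protocols the animals were chimeras, made by injecting embryonic stem cells with these transgenes into hybrid blastocysts, so host cells without them may be part of the tissue. That protocol stands with both samples, and it is not stated whether the normal kidney came from a chimera, how old the animals were or how many each library represents.

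The cell keeps 2 kinds of histone gene. Replication-dependent histones lie in clusters, are made in bulk during S phase to package newly copied DNA, and their mRNAs end in a stem-loop bound by the stem-loop binding protein Slbp instead of a poly(A) tail. Replacement histones lie outside the clusters and are mostly made throughout the cell cycle and in non-dividing cells from polyadenylated mRNAs. They include H2A.Z, macroH2A, H3.3 and H2A.X, though the annotated transcript of the H2A.X gene H2afx also holds a stem-loop. Linker histones (H1) bind the DNA between nucleosomes, and most H1 genes lie in the Hist1 cluster, while H1.0, encoded by H1f0, is known for accumulating in differentiated, non-dividing cells.

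The 3' stem-loop is shown for 6 genes because most cluster genes held a match and few other genes did. Each line gives the transcript sequence around it from GENCODE M21 (GRCm38), 5' to 3', with the stem-loop in capitals.
Hist1h1c: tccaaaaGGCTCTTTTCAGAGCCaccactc
Hist1h2bb: acccaaaGGCTCTTTTAAGAGCCacccaca
Hist1h3b: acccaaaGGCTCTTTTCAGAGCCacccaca
Hist1h4c: aacaaaaGGCCCTTTTCAGGGCCacccaca
Hist1h4d: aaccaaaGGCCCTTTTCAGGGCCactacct
H2afx: ccacaaaGGCCCTTTTAAGGGCCaccacct
The search took a 6-base stem that begins GG and ends T and a 4-base loop with T at its second position. The fully matching second arm of the stem had to follow. The search ran over whole annotated transcripts, not only the stretch after the stop codon. A match was found in 40 of 63 cluster genes. All 40 were among the 47 for which at least 20 bases after the stop codon are annotated. Over all protein-coding genes, histone genes included and whatever was annotated after their stop codon, it was found in 130 of 21877 (0.594%). The form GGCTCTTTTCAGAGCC stood in 22 of the histone genes, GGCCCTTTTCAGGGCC in 7 and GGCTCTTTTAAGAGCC in 6. Outside the clusters, H2afx, which encodes the DNA damage mark H2A.X, was the only one of 12 genes with such an annotation to hold a match. Of those 47 cluster genes, the 7 with no match were Hist1h1a, Hist1h2bc, Hist1h2br, Hist1h3g, Hist1h4a, Hist2h2be and Hist2h3b. The match lay within 60 bases of an annotated transcript end in only 19 of the 63 cluster genes (30.2%). Over all protein-coding genes it did so in 21 of 21877 (0.096%). That count includes histone genes too, so it overlaps with the count of cluster genes. Of the genes printed, Hist1h1c had 840 annotated bases after the stem-loop, H2afx 822, Hist1h4d 770 and Hist1h4c 454. Hist1h3b had 51 and Hist1h2bb 23.

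Promoters are shown for the linker gene with the largest difference between the libraries (Hist1h1b, chr13:21780576-21780875, minus strand), the H2B gene with the most reads (Hist2h2bb, chr3:96269450-96269749, plus strand), an H4 gene that was high in both libraries (Hist1h4c, chr13:23698409-23698708, minus strand) and the single histone gene that was lower in the tumour library (H2afj, chr6:136807998-136808297, plus strand). They are RefSeq sequences of GRCm38.p6, from 250 bases before to 50 bases after the annotated start. Capitals mark the CCAAT box, the TATA box as TATAAA, the octamer ATTTGCAT and the H1 box AAACACA, on either strand, so that ATTGG is CCAAT on the other.
Hist1h1b: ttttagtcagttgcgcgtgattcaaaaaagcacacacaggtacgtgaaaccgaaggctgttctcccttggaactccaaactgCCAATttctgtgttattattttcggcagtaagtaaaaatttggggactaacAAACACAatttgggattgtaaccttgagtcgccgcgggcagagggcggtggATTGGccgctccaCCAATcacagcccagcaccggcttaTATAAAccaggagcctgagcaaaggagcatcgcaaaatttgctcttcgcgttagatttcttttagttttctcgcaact
Hist2h2bb: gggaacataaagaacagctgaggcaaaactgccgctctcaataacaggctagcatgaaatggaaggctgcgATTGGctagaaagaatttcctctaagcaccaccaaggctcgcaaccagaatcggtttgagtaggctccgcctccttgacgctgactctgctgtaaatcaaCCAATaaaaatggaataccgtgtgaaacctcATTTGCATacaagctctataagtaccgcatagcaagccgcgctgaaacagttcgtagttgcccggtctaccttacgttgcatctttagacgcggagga
Hist1h4c: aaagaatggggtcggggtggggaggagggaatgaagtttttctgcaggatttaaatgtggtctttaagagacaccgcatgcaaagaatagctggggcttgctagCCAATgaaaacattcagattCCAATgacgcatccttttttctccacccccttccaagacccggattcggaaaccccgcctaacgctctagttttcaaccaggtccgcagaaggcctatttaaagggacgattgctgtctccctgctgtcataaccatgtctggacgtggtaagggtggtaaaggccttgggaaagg
H2afj: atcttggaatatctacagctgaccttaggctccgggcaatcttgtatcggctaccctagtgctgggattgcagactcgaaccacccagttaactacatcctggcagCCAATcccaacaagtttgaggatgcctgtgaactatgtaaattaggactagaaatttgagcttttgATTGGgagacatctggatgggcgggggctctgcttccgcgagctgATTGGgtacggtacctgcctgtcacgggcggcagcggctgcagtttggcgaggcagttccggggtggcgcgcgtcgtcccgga
A RefSeq promoter was matched for 71 of the 79 genes, and 67 of these start within 50 bases of the deposited gene model. The starts of Hist1h2br (23544 bases), Hist2h3c1 (1228), H2afb3 (131) and Hist1h4j (62) lie further away. Hist1h2br, Hist2h3c1 and Hist1h4j are still in the counts of cluster gene promoters. CCAAT stood in 48 of 57 cluster gene promoters (84.2%), against 37.9% of 27025 promoters with 1 taken per gene, and TATAAA in 33 of 57 (57.9%), against 14.2%. The octamer stood in 7 of 16 H2A and 6 of 15 H2B promoters and in no H3, H4 or clustered H1 promoter, against 1.75% of all. The H1 box stood in 5 of 6 clustered H1 promoters, against 7.14% of all. CCAAT was in all 16 H2A, 15 H2B, 8 H3 and 6 clustered H1 promoters and in 3 of 12 H4 promoters (Hist1h4a, Hist1h4c and Hist1h4d). H2afj held CCAAT 3 times and none of the other 3 motifs. Many H2A and H2B genes lie in pairs on opposite strands, with 167 to 305 bases between their starts. The windows of such a pair overlap, so 1 site can be counted for both genes. Hist1h2ae and Hist1h2bg, for example, each held 2 CCAAT and 1 octamer. The promoters counted above are thus not all separate stretches of DNA. These letter matches are descriptions and show no binding.

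The counted exon reads came to 29258428 in normal kidney and 20836819 in the tumour. Ratios are TMM-scaled counts, tumour over normal, with an exact 95% interval that covers counting error only, since copies made by PCR count like separate molecules. With 1 library per group no p-value was computed, and differences have no replicate check. A gene counted as measured where both libraries together gave it 20 reads or more, and as higher or lower when the ratio was at least 2-fold and the interval excluded 1. Of all 16326 measured genes 59.2% were called in either direction, and their median log2 ratio was 0.08. The summed level of 5 proximal tubule markers was 20923 CPM (TMM-scaled) for normal kidney and 833 CPM for the tumour, and all 5 were lower there. The 6 markers of dividing cells summed to 29.9 and 2649 CPM. The 6 of pluripotent cells (Nanog, Sox2, Lin28a, Dppa4, Utf1 and Zfp42) summed to 0.0829 and 972 CPM, and 4 of these had 0 reads in the normal library. Sox2, with 0 reads in the normal library and 151 CPM in the tumour, is also switched on by doxycycline. The exon counts do not separate transgene from endogenous reads. In bulk tissue, more cells that make a transcript and more transcript per cell cannot be told apart. The part of these cell type differences in the histone results was not tested.

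Of the 79 histone genes 67 were measured, and 61 of these were higher in the tumour library, 1 was lower and 5 were neither. Over all measured genes 31.2% were higher and 28.0% lower. A gene with few reads in normal kidney can only be measured if the tumour library is high, and so had to differ. With at least 20 reads in the normal library alone, 43 histone genes were measured and 37 of them were higher, against 22.1% of all genes so filtered, in a count added after seeing the data. It took in 5 linker genes (4 higher), 30 core genes (29 higher) and 8 replacement genes (4 higher). All histone genes together took 30644 reads (0.105% of counted reads) in the normal and 242626 reads (1.16%) in the tumour library. After TMM scaling these were 1271 and 9598 CPM, a 7.55-fold difference (interval 7.46 to 7.64). The unscaled shares lie further apart than that. The median log2 ratio was 5.78 over the 8 measured linker genes, 6.12 over the 51 measured core genes and 0.97 over the 8 measured replacement genes, and with the filter on normal reads 2.34, 5.49 and 0.97. At 8-fold or more, 44 core genes, 5 linker genes and 1 replacement gene (H2afx) were higher, against 12.2% of all measured genes. At 64-fold or more there were 26 core and 4 linker genes and no replacement gene, against 2.8%. Both counts use the filter on both libraries, so they take in genes with few normal reads. All 8 measured replacement genes had at least 20 normal reads, but only 30 of 51 core and 5 of 8 linker genes did. The classes are thus not compared on equal terms there.

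**Figure D1:**
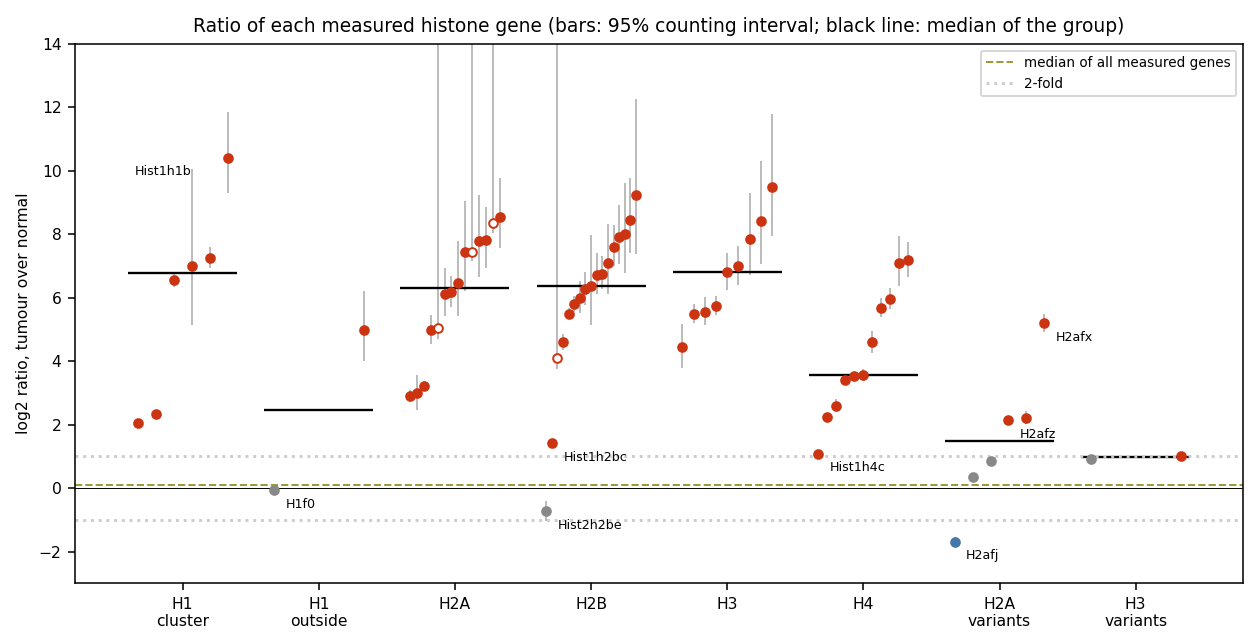
Log2 ratio of each measured histone gene, tumour over normal, by type. Red points are called higher, blue lower and grey neither. Open points had 0 reads in the normal library and stand at the ratio with 3 counts in place of the 0. Grey bars are 95% counting intervals and black lines are medians of the group. All measured H2A, H3, H4 and clustered H1 genes lie above 2-fold, while H2A and H3 variants are spread from H2afj, which is lower, to H2afx. H2afz and H2afy2 lie above 2-fold as well, and H3f3b just above it.

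The classes also divided the histone reads differently. Linker, core and replacement genes took 34.0%, 27.8% and 38.2% of histone reads in the normal library and 27.5%, 60.6% and 11.9% in the tumour library. Genes of the clusters, H1 included, took 46.1% (interval 45.6 to 46.7) in the normal and 86.0% (interval 85.9 to 86.2) in the tumour library. These shares do not depend on how the libraries are scaled, but they weight long transcripts more. Per length (RPKM), linker, core and replacement genes took 26.5%, 53.6% and 19.8% in the normal and 20.02%, 75.2% and 4.74% in the tumour library, and cluster genes 74.4% and 94.7%.

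Linker histones. Of 8 measured linker genes 7 were higher in the tumour library and 1, H1f0, was neither. The 6 clustered H1 genes together went from 5633 to 61592 reads, a 10.4-fold difference (interval 10.2 to 10.7), while the 4 H1f genes outside the clusters had 4786 and 5079 reads.

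Hist1h1c, which encodes H1.2, had 3560 reads in normal kidney and 15456 in the tumour (121.7 and 643.6 RPKM), 4.14-fold higher (interval 3.99 to 4.30). Hist1h1e, encoding H1.4, had 1836 and 9745 reads (58.2 and 376.2 RPKM), 5.06-fold higher (interval 4.82 to 5.33). These were the H1 genes with the highest level in normal kidney, and their differences were the smallest of the clustered H1 genes. The others were much lower in the normal library. Hist1h1d, encoding H1.3, had 152 and 15175 reads (4.85 and 590.3 RPKM), 95.2-fold higher (interval 81.2 to 112). Hist1h1a, encoding H1.1, had 77 and 12393 reads (2.56 and 502.2 RPKM), 154-fold higher (interval 123 to 195). Hist1h1b, encoding H1.5, had 6 and 8554 reads (0.187 and 325.2 RPKM), 1360-fold higher (interval 625 to 3707). Hist1h1b had the largest log2 ratio of all histone genes, 10.41, and its normal count of 6 reads sets the width of the interval. In the tumour library 5 of these H1 genes lay between 325.2 and 643.6 RPKM, and in normal kidney between 0.187 and 121.7 RPKM.

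The testis-type linker Hist1h1t had 2 reads in normal kidney and 269 in the tumour (0.0674 and 11.05 RPKM), a ratio of 128 (interval 35.2 to 1065). Of the genes outside the clusters, H1f0 had 4778 and 4809 reads (51.7 and 63.4 RPKM), a log2 ratio of -0.06 that is 0.50 with plain CPM, 0.29 with the totals of the file headers and 0.29 with RPKM plus 1. H1fx, encoding H1X, had 8 and 267 reads (0.187 and 7.59 RPKM), 31.8-fold higher (interval 15.9 to 74.5). It overlaps the opposite-strand gene Gm5577 over 600 bases, which had 3 and 92 reads, and the strand setting of the count was not given in the sources used here. The oocyte linker H1foo had 0 and 3 reads and the spermatid linker H1fnt 0 and 0. H1f0 has a longer transcript than the clustered H1 genes. It made up 45.9% of all H1 reads in normal kidney and 7.21% in the tumour, but 21.6% and 2.51% of the H1 level per length (RPKM).

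Core histones. Of 51 measured core genes 50 were higher in the tumour library and none lower, with Hist2h2be as the exception. The 4 core types differed in size. Summed H3 reads went from 325 to 23861, 70.0-fold (interval 62.8 to 78.4). Summed H2B reads went from 1752 to 50992, 27.8-fold (interval 26.5 to 29.1), and summed H2A reads from 801 to 21419, 25.5-fold (interval 23.8 to 27.4). Summed H4 reads went from 5630 to 50832, 8.61-fold (interval 8.38 to 8.86). H4 thus took 66.2% of core reads in normal kidney and 34.6% in the tumour, and H3 took 3.82% and 16.2%. Per length these shares were 73.2% and 41.2% for H4 and 2.93% and 14.5% for H3.

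H2A genes. All 14 measured H2A genes of the clusters were higher, with a median log2 ratio of 6.32 and a range from 2.89 to 8.55. Only 5 of them had at least 20 reads in normal kidney, and the median of these was 3.23. The 3 smallest ratios were those of genes outside the Hist1 cluster. Hist2h2ac had 254 reads in normal kidney and 1975 in the tumour, 7.42-fold higher (interval 6.51 to 8.49). Hist2h2ab had 33 and 276 reads, 7.98-fold higher (interval 5.55 to 11.8), and Hist3h2a had 385 and 3784 reads (18.8 and 225.0 RPKM), 9.38-fold higher (interval 8.44 to 10.4). At the other end Hist1h2ad had 8 and 3152 reads, 376-fold higher (interval 191 to 871). Hist1h2ae, with 0 and 1023 reads, had a ratio of 325 with 3 counts in place of the 0, and its interval began at 264. In the same way Hist1h2an, with 0 and 551 reads, had a ratio of 175 (interval from 142). The testis-type gene Hist1h2aa, with 0 and 103 reads, had a ratio of 32.8 (interval from 26.2).

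H2B genes. Of 17 measured H2B genes 16 were higher, with a median log2 ratio of 6.36, or 5.90 over the 10 with at least 20 reads in normal kidney. Hist2h2bb, whose promoter is printed above, had the most reads, 254 in normal kidney and 12013 in the tumour (12.8 and 736.1 RPKM), 45.1-fold higher (interval 39.8 to 51.3). Hist1h2bb had 133 and 7821 reads (6.73 and 482.2 RPKM), 56.1-fold higher (interval 47.3 to 67.1). Hist1h2bp had 2 and 1252 reads, a ratio of 597 (interval 165 to 4937). Hist1h2bc and Hist2h2be had the smallest ratios of the type. Hist1h2bc, the main H2B gene of the normal kidney, had 807 and 2246 reads (42.7 and 144.7 RPKM), 2.66-fold higher (interval 2.45 to 2.88). Hist2h2be had 228 and 145 reads (2.16 and 1.67 RPKM), a log2 ratio of -0.72 that is -0.16 with plain CPM. Its ratio of 0.607 (interval 0.489 to 0.750) did not reach 2-fold lower. The testis-type Hist1h2ba, with 0 and 54 reads, had a ratio of 17.2 with 3 counts in place of the 0 (interval from 13.5).

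H3 genes. All 9 measured replication-dependent H3 genes were higher, with a median log2 ratio of 6.80, or 5.74 over the 5 with at least 20 reads in normal kidney. Hist1h3e, a replication-coupled H3 gene, had 97 reads in normal kidney and 5439 in the tumour (5.12 and 349.6 RPKM), 53.5-fold higher (interval 43.8 to 66.1). Hist1h3f had 94 and 4438 reads, 45.0-fold higher (interval 36.7 to 55.9). The smallest ratio was that of Hist2h3b, with 19 and 431 reads, 21.6-fold higher (interval 13.7 to 36.3). The largest was that of Hist1h3g, with 3 and 2280 reads (0.151 and 139.99 RPKM) and a ratio of 725 (interval 248 to 3518). The 9 genes lay between 0.151 and 5.12 RPKM in normal kidney and between 25.9 and 349.6 RPKM in the tumour.

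H4 genes. All 11 measured H4 genes were higher, with a median log2 ratio of 3.56. This was the lowest of the core types, but over genes with at least 20 reads in normal kidney the order turned, with 3.55 for H4 and 3.23 for H2A. Hist1h4c, the H4 gene highest in normal kidney, had 2154 reads in normal kidney and 4765 in the tumour (142.5 and 384.1 RPKM), 2.11-fold higher (interval 2.01 to 2.22). Hist1h4h had 1384 and 6802 reads (78.9 and 472.5 RPKM), 4.69-fold higher (interval 4.42 to 4.97). Hist1h4d had 1022 and 12382 reads (68.9 and 1017 RPKM), 11.6-fold higher (interval 10.8 to 12.3), and was per length the highest of all histone genes in the tumour library. Per length these 3 genes gave 81.9% of the H4 level in normal kidney. In the tumour their shares were 9.84%, 12.1% and 26.1%. The largest ratio was that of Hist1h4k, with 29 and 4426 reads, 146-fold higher (interval 101 to 218). Of the 11 measured H4 genes 10 had at least 20 reads in normal kidney, a larger part than in any other core type.

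**Figure D2:**
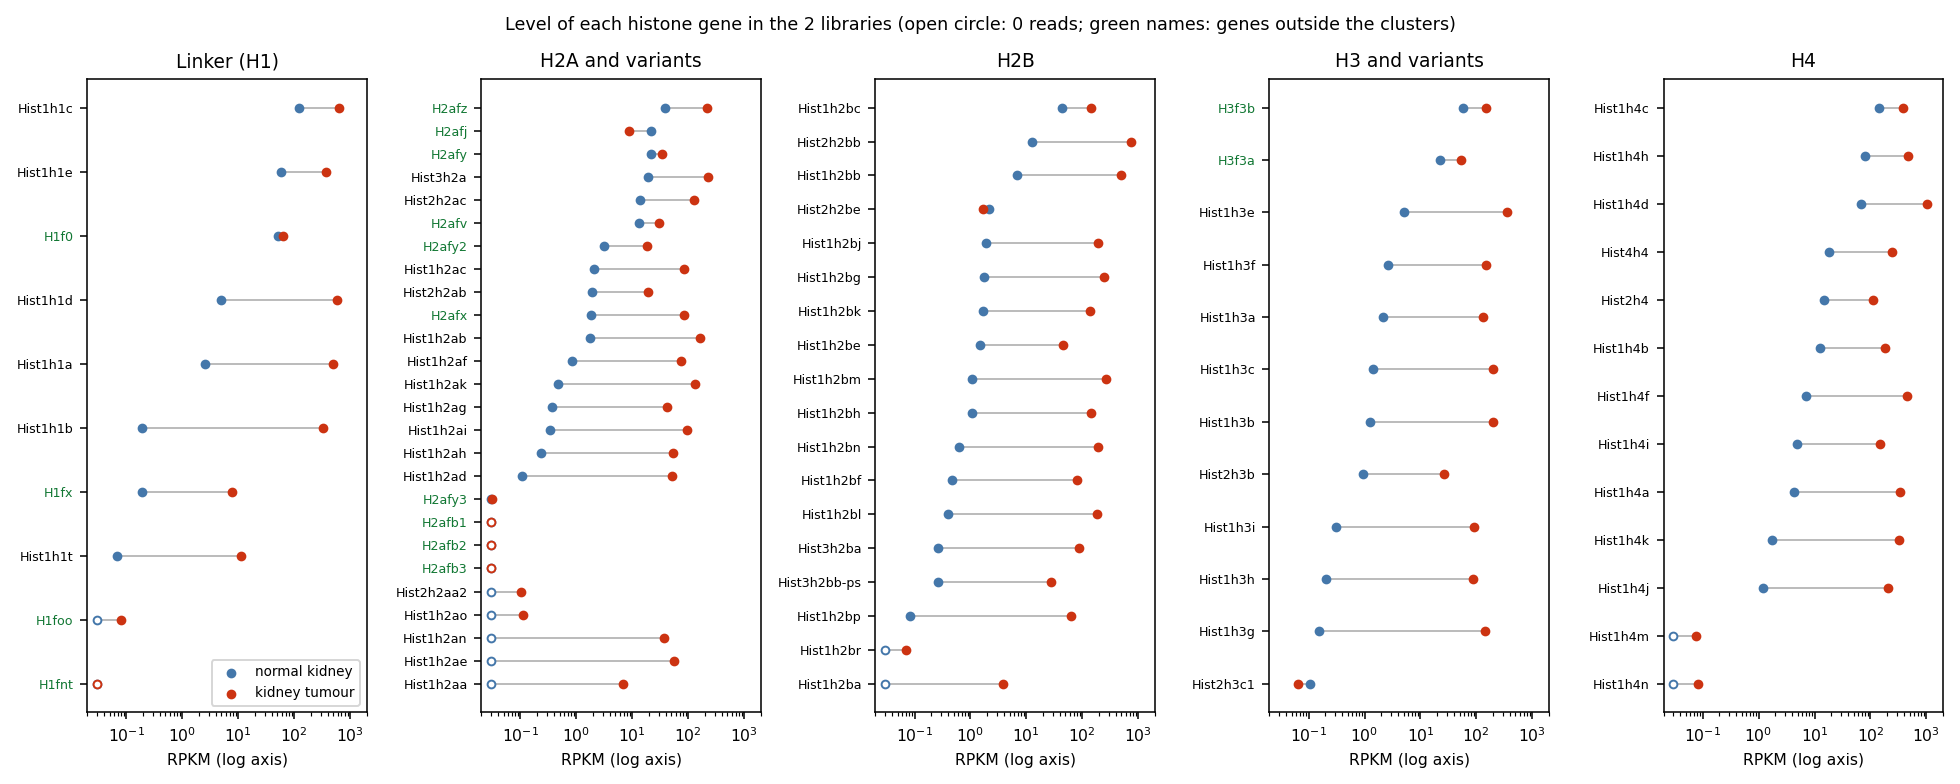
RPKM of each of the 79 histone genes in the normal (blue) and tumour (red) library on a log axis, sorted within a type by the normal level. Open circles are 0 reads, drawn at the left edge, and green names are genes outside the clusters. Tumour levels reach 1017 RPKM (Hist1h4d) and normal levels 142.5 RPKM (Hist1h4c).

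More genes supplied each histone type in the tumour library. The number of equally used genes that would give the same evenness of RPKM shares (the inverse of the summed squared shares) went from 2.74 to 5.01 for H1, 6.25 to 12.1 for H2A with its variants, 2.77 to 8.39 for H2B, 2.29 to 8.22 for H3 with its variants and 3.91 to 7.57 for H4. In normal kidney a single gene gave most of the level in 3 types. These were Hist1h1c with 50.8% of H1, Hist1h2bc with 56.6% of H2B and H3f3b with 61.3% of H3. In the tumour library the leading genes were Hist1h1c with 25.5% of H1, Hist3h2a with 14.4% of H2A, Hist2h2bb with 24.3% of H2B, Hist1h3e with 22.2% of H3 and Hist1h4d with 26.1% of H4. Another gene led in each type but H1. Among cluster genes alone, however, Hist3h2a led H2A (46.6% and 19.3%) and Hist1h3e led H3 (36.02% and 25.5%) in both libraries, and the evenness number went from 2.98 to 9.39 for H2A and from 4.80 to 6.80 for H3.

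**Figure D3:**
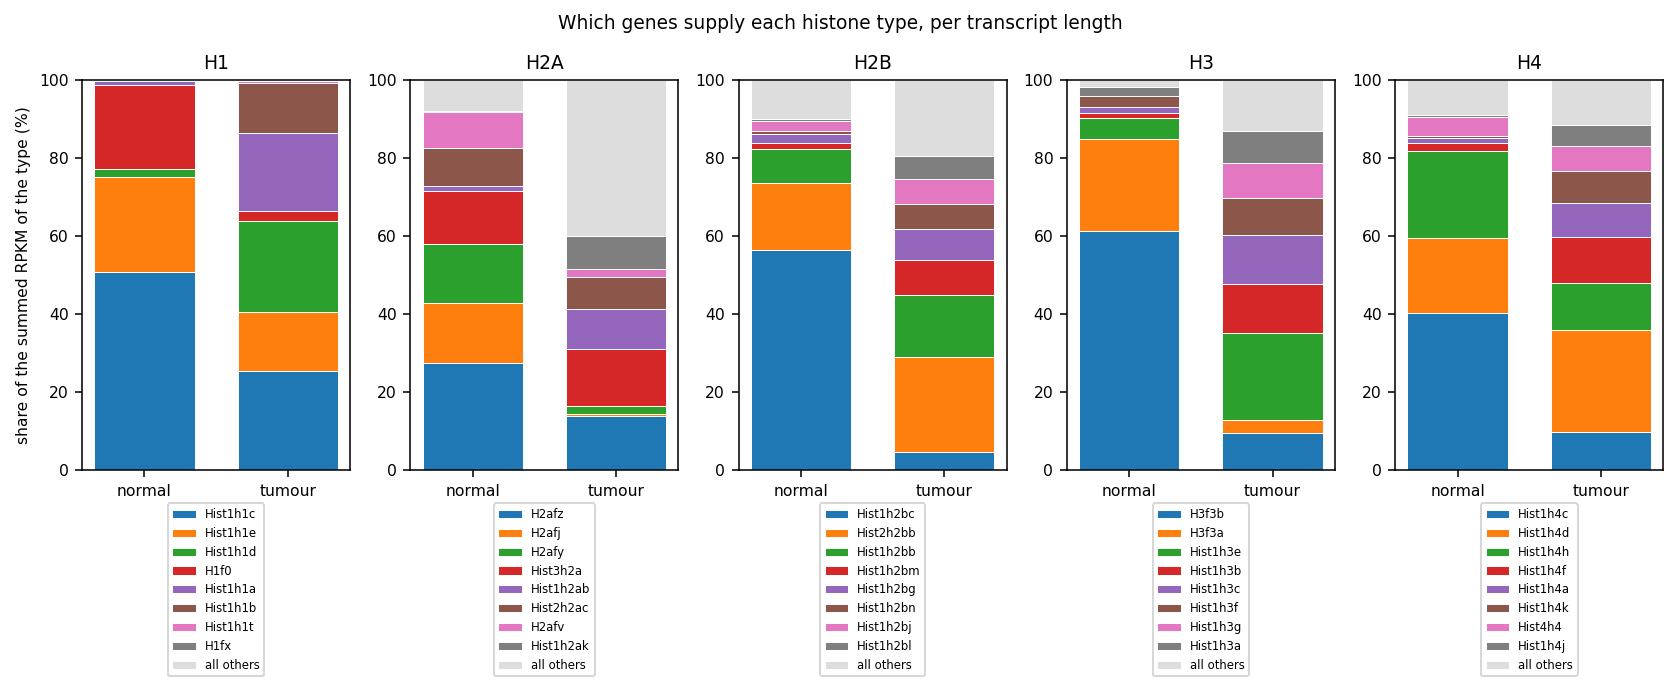
Share of the summed RPKM of each histone type (percent, vertical axis) that each gene gave in the normal and tumour library, with the 8 genes of largest share coloured and the rest in grey. Replacement genes H3f3b and H3f3a fill most of the H3 bar in the normal library and a small part of it in the tumour library.

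The cluster genes lie in 6 groups along 4 chromosomes, 3 of them on chromosome 13 (coordinates mm10, counted from 1). In the first, which begins at 21715713 with Hist1h2bl, all 12 measured genes were higher, with a median log2 ratio of 7.83 and none under 7.10. The second, from 22035122 with Hist1h2ah, held 5 measured genes with a median of 6.26, and the third, from 23531044 with Hist1h4h to Hist1h2aa at 23934913, held 30 with a median of 5.78 and a range from 1.08 to 9.50. The Hist2 group on chromosome 3 had a median of 2.94 over 6 genes and the Hist3 group on chromosome 11 one of 6.36 over 3 genes, of which only Hist3h2a (3.23) had at least 20 reads in normal kidney. Hist4h4 on chromosome 6 stood alone, with 319 and 3570 reads and 10.7-fold higher (interval 9.52 to 12.01). The first group on chromosome 13 had 117 reads in all in the normal library, against 12130 for the third. Of its 12 measured genes 2 had at least 20 reads in normal kidney, against 22 of 30 in the third.

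Many core genes form divergent pairs that share the stretch between their starts. There were 13 such pairs, 12 with both genes measured. Hist1h2ak and Hist1h2bn, 210 bases apart, had log2 ratios of 7.81 and 7.91, and Hist1h2ag and Hist1h2bj, 280 bases apart, 6.47 and 6.26. In 3 pairs the genes differed by more than 3 on the log2 scale. Hist2h2ac (2.89) and Hist2h2be (-0.72) lie 240 bases apart, Hist1h2ac (4.98) and Hist1h2bc (1.41) 239 bases apart, and Hist3h2a (3.23) and Hist3h2bb-ps (6.36) 172 bases apart. Some measured cluster genes had at least 20 bases annotated after the stop codon but no stem-loop match. Their ratios ran from those of Hist2h2be and Hist1h2bc to Hist1h1a (7.26) and Hist1h3g (9.50).

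**Figure D4:**
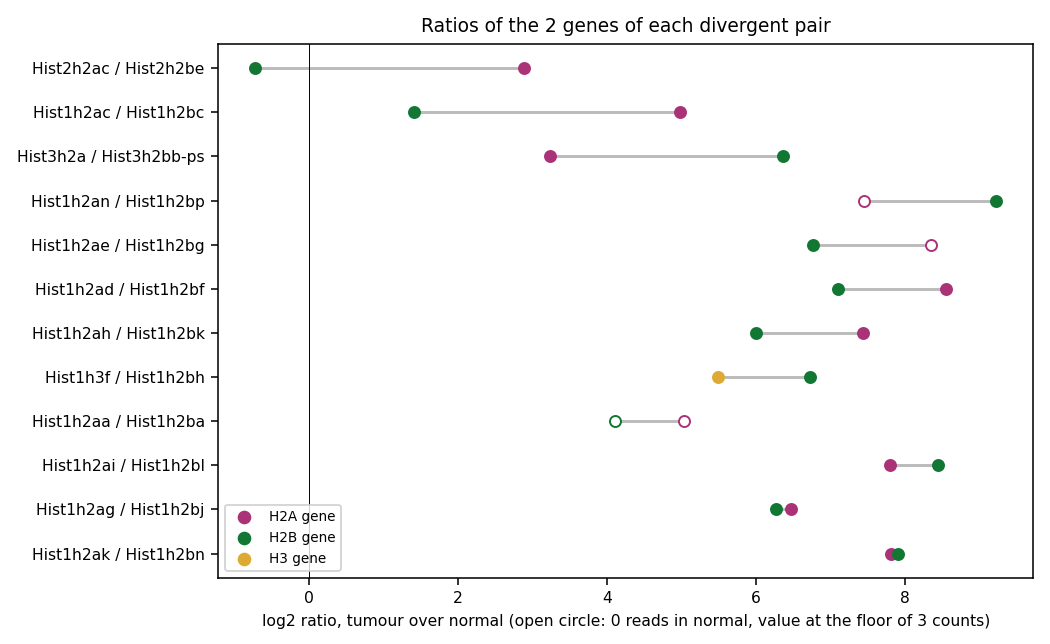
Log2 ratio, tumour over normal, of both genes of each of 12 divergent pairs (H2A genes purple, H2B genes green, an H3 gene yellow; open circles had 0 reads in the normal library and stand at the bound). The pairs are sorted by the distance between their genes, which is 3.61 in the top pair and 0.09 in the bottom pair.

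Replacement histones. Of 8 measured genes 4 were higher, 1 lower and 3 neither. H2afz, encoding H2A.Z, which marks promoters and enhancers, had 1640 reads in normal kidney and 7587 in the tumour (38.1 and 215.0 RPKM), 4.41-fold higher (interval 4.18 to 4.66). H2afv, its close relative, had 858 and 1633 reads (13.02 and 30.2 RPKM), a ratio of 1.82 (interval 1.67 to 1.97). H2afx had 100 and 3856 reads (1.82 and 85.6 RPKM), 36.8-fold higher (interval 30.2 to 45.3), the largest ratio of the class. It is also the replacement gene whose annotated transcript holds the stem-loop, as printed above. H2afy2, encoding macroH2A2, had 241 and 1176 reads (3.14 and 18.7 RPKM), 4.66-fold higher (interval 4.05 to 5.37). H2afy, encoding the more abundant macroH2A1, had 1671 and 2241 reads (21.2 and 34.6 RPKM), a ratio of 1.28 (interval 1.2 to 1.36).

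H2afj, which encodes the variant H2A.J, had 1594 reads in normal kidney and 518 in the tumour (21.6 and 8.55 RPKM), 3.23-fold lower (interval 2.92 to 3.57). It was the single histone gene called lower, and its log2 ratio was -1.69, or -1.13 with plain CPM. It begins at 136808248 on chromosome 6, next to Hist4h4, which ends at 136804431 and was 10.7-fold higher. In the normal library H2afj was 15.5% of the H2A level per length and in the tumour library 0.549%.

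H3f3b and H3f3a encode the same H3.3 protein, the H3 form laid down outside replication. H3f3b had 4647 and 9930 reads (57.8 and 150.5 RPKM), 2.04-fold higher (interval 1.97 to 2.11), and so lay at the threshold. H3f3a had 966 and 1908 reads (22.3 and 53.7 RPKM), a ratio of 1.88 (interval 1.74 to 2.04). With plain CPM, header totals or RPKM, H3f3a and H2afv pass 2-fold too. Replacement H3 took 94.5% of H3 reads (interval 93.9 to 95.1) in the normal and 33.2% (interval 32.7 to 33.7) in the tumour library. Replacement H2A took 88.4% and 44.3% of H2A reads. Per length (RPKM) the shares were 84.9% and 12.9% for replacement H3 and 71.03% and 25.2% for replacement H2A. The testis variants H2afb1, H2afb2 and H2afb3 had 0 reads in both libraries, and H2afy3 had 0 and 2.

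The 12 genes that were not measured were 6 cluster genes (Hist1h2ao, Hist1h2br, Hist1h4m, Hist1h4n, Hist2h2aa2 and Hist2h3c1) and 6 genes outside the clusters. Near-identical copies bear on cluster genes above all. The share of 50-base windows of the annotated transcript found in no gene elsewhere was 0 to 65.3% in these 6 (median 10.9%), against 6.08 to 100% in the 57 measured cluster genes (median 56.8%). How reads that fit several places were treated was not given in the sources used here, so the level of such copies is uncertain, and its part in the differences was not tested. Outside the clusters the share was low for H2afz (30.4%), H3f3a (51.4%), H2afb3 (53.2%) and H2afb1 (56.2%), so the same limit holds for their values. Hist1h1b, Hist1h1a and Hist2h2bb have 100% of windows of their own, Hist1h1d 97.8%, and Hist1h3h and Hist1h2ah 6.08% and 9.27%.

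The testis-type genes Hist1h1t, Hist1h2aa and Hist1h2ba were all higher in the tumour library, at 11.05, 6.89 and 3.78 RPKM there. The 4 germ cell markers summed to 0.498 and 88.3 CPM, and all 4 were higher. Their part in these levels was not tested.

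Genes that make, process and carry histones were described from 6 lists. Their counts are to be read beside the 31.2% of all measured genes that were higher and the 28.0% that were lower. Of 13 genes of histone gene transcription 10 were higher and none lower, with a median log2 ratio of 1.90. Npat, the cyclin E and Cdk2 target that activates the clusters, had 767 and 2415 reads, 3.004-fold higher (interval 2.77 to 3.26). Ccne1, encoding cyclin E1, had 19 and 1757 reads, 88.2-fold higher (interval 56.3 to 147), Ccne2 was 9.11-fold and E2f1 8.72-fold higher. Pou2f1, encoding the octamer-binding factor Oct-1, was 3.73-fold higher.

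Of 19 genes of histone mRNA 3' end processing and decay 10 were higher and none lower, with a median of 1.03, or 0.93 for those with at least 20 reads in normal kidney. Slbp had 511 and 2120 reads, 3.96-fold higher (interval 3.59 to 4.37). Zfp473, which encodes a zinc finger protein of the U7 complex, had 10 and 439 reads, 41.9-fold higher (interval 22.6 to 87.9), and Zcchc11, a uridylyltransferase, was 5.53-fold higher. Lsm11, a U7-specific ring subunit, was 3.54-fold higher, while its partner Lsm10 had 258 and 235 reads (ratio 0.869, interval 0.725 to 1.04). The cleavage factors Cpsf3 and Sympk had ratios of 1.40 and 1.34.

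Of 16 replication-coupled chaperone genes 13 were higher and none lower, with a median of 2.61. Chaf1b, a subunit of the chromatin assembly factor CAF-1, had 26 and 2073 reads, 76.1-fold higher (interval 51.8 to 117). Asf1b, an H3-H4 chaperone of dividing cells, had 17 and 486 reads, 27.3-fold higher (interval 16.9 to 47.2), while its relative Asf1a had 474 and 938 reads, a ratio of 1.89. Mcm2, a helicase subunit that also binds histones, was 22.6-fold higher (interval 20.5 to 24.96), and Nasp, which keeps the soluble H3-H4 pool, had 816 and 19087 reads, 22.3-fold higher (interval 20.8 to 23.96).

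Of 24 genes of replication-independent and variant chaperones 16 were higher and 2 lower, with a median of 1.31. Hira, the H3.3 chaperone, was 2.42-fold and Daxx 2.37-fold higher. Npm1, encoding nucleophosmin, had 4049 and 57340 reads, 13.5-fold higher (interval 13.1 to 13.95), and Nap1l2, a nucleosome assembly protein gene, had 1 and 84 reads, a ratio of 80.1 whose interval runs from 13.996 to 3202. Nap1l5, another gene of that family, had 167 and 34 reads, 5.15-fold lower, and Nap1l3 had 94 and 38 reads, 2.59-fold lower.

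Of the 7 genes of the centromeric histone and its loading all were higher, with a median of 4.25. Cenpa, the centromeric H3 variant, had 20 and 1609 reads, 76.7-fold higher (interval 49.5 to 126). Hjurp, its chaperone, had 1028 and 4411 reads, 4.09-fold higher (interval 3.82 to 4.39). Of 20 S phase genes 19 were higher and none lower, with a median of 3.96. The replicative helicase genes Mcm3 and Mcm5 were 75.2-fold and 47.0-fold higher. Set beside the core histones' median of 6.12, all 6 lists had lower medians. That value takes in core genes with few normal reads, and with at least 20 normal reads it was 5.49, still above the list medians. By core type, that filter gave 5.90 for H2B and 5.74 for H3, above all 6 lists. It gave 3.55 for H4 and 3.23 for H2A, below the S phase and centromeric lists.

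**Figure D5:**
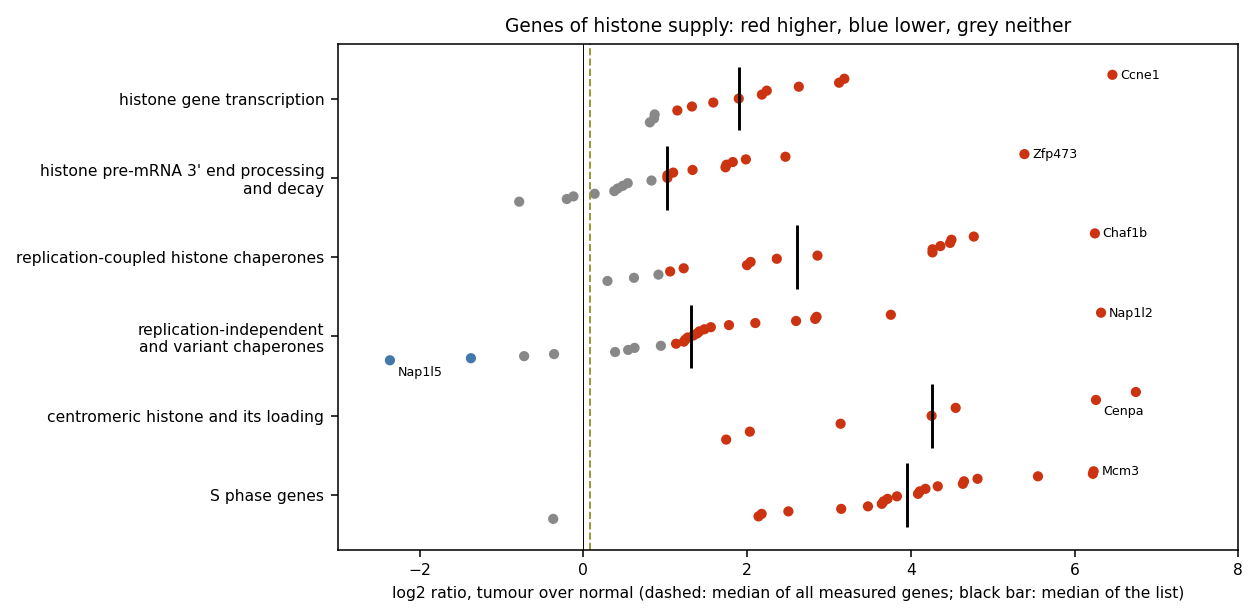
Log2 ratio, tumour over normal, of the measured genes of the 6 lists (red higher, blue lower, grey neither; black bars are list medians, the dashed line the median of all measured genes). Medians run from 1.03 for 3' end processing and decay to 4.25 for the centromeric histone and its loading.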

How the data were processed

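RNA-seq was analysed from 1 normal kidney and 1 kidney tumour library. Per the labels' protocols, ribosomal RNA was removed from total RNA with Ribo-Zero Gold and the library kit keeps the strand. The deposited table holds read counts on the exons of 32958 gene models, and the authors gave RPKM values too, with totals of 40408775 and 33169818 reads per the file headers, of which 72.4% and 62.8% were counted on exons. The deposited RPKM equalled the count scaled by transcript length and those totals. STAR 2.5.0c, HOMER and bcl2fastq are named in the submitters' processing notes, with the build mm10. The treatment of reads that fit several places and the strand setting were not given in the sources used here.

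TMM factors of 0.824 and 1.21 (edgeR 4.0.16, R 4.3.3) scaled the counts. Intervals are exact conditional (Clopper-Pearson) 95% intervals of the 2 counts, and exact binomial ones for shares. A count of 0 was replaced by 3 counts per library. Levels of single genes were compared as RPKM, and shares of summed reads are given beside shares of summed RPKM. Plain CPM, header totals, DESeq2 1.42.0 size factors, RPKM plus 0.1 or 1, other read minimums and other call rules were tried as alternatives. The ratio and interval code was tested on simulated data. Python 3.11.15, numpy 2.4.6, pandas 2.3.3, scipy 1.17.1 and matplotlib 3.10.9 were used. All 79 symbols matched RefSeq by Entrez number, and 76 have other symbols there now.

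The histone genes and the lists of related genes were chosen with earlier results of these data known. Histone genes given in full are, per class, the 5 with most reads, the 3 largest and 3 smallest log2 ratios, every one called lower, and the genes of H2A.Z, macroH2A, H2A.X, H3.3, H1.0 and H1X. From each list Slbp, Npat, Cenpa, the 3 largest ratios and, where at least 2-fold lower, the smallest were taken, with a mean of at least 1 CPM. Other genes were named after their values were seen. Results of some list genes are not reported here.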

Additional observations from a re-analysis of the deposited data

How the results depend on the processing

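For 67 measured histone genes, 402 values under other scalings, RPKM with a pseudocount and summed rows were computed. Of these 394 kept their side of the threshold, while 8 (H2afv and H3f3a, 4 each) passed 2-fold under plain CPM, header totals and RPKM plus 0.1 or 1. H1f0 changed sign between scalings without being called. Of 218 alternatives for the counts, sums, shares and medians, 206 stayed within the limits set. The median log2 ratio of the replacement genes passed 1, at 1.53 under plain CPM, 1.32 under header totals, 1.32 for RPKM plus 0.1 and 1.30 for RPKM plus 1. At 4-fold 3023 genes were higher and 2573 lower, and of the replacement genes 0 were lower, which loses H2afj. For RPKM plus 1, 2758 genes were lower, and the linker median was 3.18. The filter of 20 reads in the normal library alone, added after seeing the data, left 4 linker, 29 core and 3059 of all genes higher and put the median of the processing and decay list at 0.93. Fewer genes are tested there. Of all calls, 52.8% were higher, against 67.6% under plain CPM, 62.5% under header totals, 62.6% for RPKM plus 0.1 and 40.4% under that filter. The median of all genes then moved by 0.56, 0.35, 0.32 and -0.31. No paired analysis was possible because each group has 1 library, and for that reason no library could be left out. Low normal counts limit the largest ratios, such as that of Hist1h1b.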
